A study of Homo sapiens with 4 samples.

Results

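CD55, CD46 and CD59 are the membrane proteins that keep complement from attacking the body's own cells. Their transcripts were followed in DLD-1 and HT-29, established human colorectal cancer lines, with and without 5-aza-2'-deoxycytidine. Once built into DNA, this cytidine analogue binds the methylating enzymes, and methylation falls as cells divide. Members were all probes that the array's annotation gives to CD55 (older symbol DAF), CD46 (older symbol MCP) or CD59. There were 6 of them among 29640 probes, or 3 of 12996 named genes, with 3 probes for CD55, 2 for CD46 and 1 for CD59. The platform table names CD55 probe 1 (AGhsA241307), CD46 probe 1 (AGhsA081212) and CD59 probe 1 (AGhsA261121). The scanner files' descriptions name the other 3. They are CD55 probe 3 (AGhsB200207), described as decay accelerating factor, and CD55 probe 2 (AGhsB200107) and CD46 probe 2 (AGhsB171312), both described as a hypothetical protein with the symbol daf or mcp. What those last 2 probes detect is therefore less sure. A probe for the chemokine MCP-4 is not a member.

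In the treated group, cells of each line were grown for 24 h and then kept for 96 h with 1 µM of the drug. The untreated group was the same line without it, and both lines grew in RPMI1640. For each line, treated and untreated RNA shared 2 arrays, with treated RNA in Cy5 on array 1 and in Cy3 on array 2, the dye exchange. Nothing in the labels points to separate cultures for the 2 arrays, which therefore stand for 1 replicate. The SD given beside a line's mean is the spread of these hybridisations, and within a line there is no p. In such bulk RNA, fewer cells of a kind and less RNA per cell cannot be told apart. The genes were chosen by measured values, namely the ratios of treated over untreated, in which 2 CD55 probes were at least 2-fold higher on both HT-29 arrays, so the ratios of the 3 genes are given as a description, with no test.

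Complement is a cascade of plasma proteases that deposits C3b on surfaces and ends in a membrane pore. CD55, decay-accelerating factor, takes apart the convertases that cleave C3 and C5. CD46, membrane cofactor protein, serves factor I as a cofactor in cutting C3b and C4b. CD59, protectin, blocks the last step by keeping C9 from joining the pore. CD55 and CD59 are held in the membrane by a glycosylphosphatidylinositol (GPI) anchor, while CD46 spans it. All of them are carried by epithelial cells of the gut, and colorectal tumours are known to bear CD55.

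The methylating enzymes that the drug binds act mainly on cytosines that precede a guanine (CpG). The 250 bases upstream of the RefSeq transcription starts are therefore shown for the 3 genes, 5′ to 3′ on the gene's strand, with each CpG in capitals. All 3 genes were matched in the RefSeq table of build GRCh38.p14, with 7 starts. The sequences are of CD55 (chr1:207321428-207321677, plus strand), the first CD46 start (chr1:207751788-207752037, plus strand), the first CD59 start (chr11:33736480-33736729, minus strand) and, for contrast, CD59 start 3 (chr11:33722950-33723199, minus strand).
CD55: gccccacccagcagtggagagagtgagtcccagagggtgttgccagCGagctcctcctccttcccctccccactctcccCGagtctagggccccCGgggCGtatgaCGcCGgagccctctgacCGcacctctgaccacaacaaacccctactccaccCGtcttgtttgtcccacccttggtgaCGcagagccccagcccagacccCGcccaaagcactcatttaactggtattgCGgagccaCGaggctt
CD46, first start: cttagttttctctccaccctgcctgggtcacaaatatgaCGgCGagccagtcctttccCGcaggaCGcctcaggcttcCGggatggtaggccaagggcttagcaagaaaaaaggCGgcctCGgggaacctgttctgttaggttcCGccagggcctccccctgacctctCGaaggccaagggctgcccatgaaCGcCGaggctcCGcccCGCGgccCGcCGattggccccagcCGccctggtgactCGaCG
CD59, first start: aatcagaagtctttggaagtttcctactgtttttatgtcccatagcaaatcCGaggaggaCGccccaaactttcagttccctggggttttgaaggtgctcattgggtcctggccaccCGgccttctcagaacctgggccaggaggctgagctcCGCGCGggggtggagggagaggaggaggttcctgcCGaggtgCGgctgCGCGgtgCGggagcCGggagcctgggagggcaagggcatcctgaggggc
CD59, start 3: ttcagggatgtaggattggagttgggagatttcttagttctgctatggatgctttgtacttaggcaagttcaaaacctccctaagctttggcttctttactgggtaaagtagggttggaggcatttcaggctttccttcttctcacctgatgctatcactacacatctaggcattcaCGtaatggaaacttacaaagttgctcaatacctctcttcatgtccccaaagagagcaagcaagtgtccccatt

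The CD55 window holds 12 CpGs in 250 bases, with 64.0% G and C. Of 35116 RefSeq windows of the same length, whose median is 11 CpGs, 51.5% hold fewer. CD46 has 19 CpGs at its first start, more than 65.4% of the windows. CD59 has 12 at its first start and 18 at start 2, but only 1 at start 3, where 6.1% of windows hold fewer. These letters give no methylation state, and methylation was not analysed here. The sequence TGACG, a part of the cyclic AMP response element, was searched on both strands and was found 2 times in the CD55 window and 1 time in the first CD46 window, and in 21.2% of all windows at least once. The GC box GGGCGG, again on both strands, was found 1 time for CD55 and 2 times for the first CD46 start, and in 42.6% of all windows. The first CD59 window had no match to either, while the window of CD59 start 2 had 2 GC boxes and no TGACG. A match is a description of the letters and says nothing of a factor's binding.

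The labels place treated RNA in channel 2 on array 1 of each line and in channel 1 on array 2, the dye exchange. Whether the file channels of array 2 follow that order is not settled here. Treated RNA was read from channel 2 of each of the 4 arrays, which on the dye-exchanged arrays goes against the channel order in the labels. The sign of every ratio on array 2 turns if the labels' order is used there. Over 18868 probes measured on all arrays, the ratios correlated at r = −0.45 between the arrays of DLD-1 and at r = 0.00 between those of HT-29. Array 1 of both lines had r = 0.51 and array 2 of both lines r = −0.20, where probes are not independent replicates. The arrays of a line thus did not agree in the reading used here. In the labels' order the r of DLD-1 becomes positive. More probes were then at least 2-fold changed on both arrays, 81 against 26 in DLD-1 and 70 against 29 in HT-29. Between 24584 and 25787 probes had a channel above background on 3 of the arrays, and 22073 on DLD-1 array 1. Of 10 colon epithelium markers, 9 in DLD-1 and 10 in HT-29 exceeded background in both channels of both arrays, LGALS4 being the exception. So did 5 of 5 leukocyte markers on the array in DLD-1 and 3 of 5 in HT-29, CD3E and LYZ among them, 5 and 4 of 6 fibroblast markers and 2 and 1 of 3 endothelial markers. Markers of cell types that these lines are not thus passed the same limit.

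CD55 had a normalised ratio of treated over untreated above 1 with each of its 3 probes on each of the 4 arrays, in the channel reading used here. The 12 log2 ratios ran from 0.23 to 2.98, and for each probe the HT-29 mean was larger than the DLD-1 mean. On CD55 probe 1 the log2 ratios of HT-29 arrays 1 and 2 were 1.41 and 1.07, a mean of 1.24 ± 0.24 (SD, n = 2 arrays) or 2.36-fold. The same probe had 0.75 and 0.33 on the 2 DLD-1 arrays, a mean of 0.54 ± 0.30 or 1.45-fold. Its HT-29 values thus both lie above its DLD-1 values, a difference that was not tested. CD55 was chosen for its HT-29 ratios, so nothing is read from the order of the lines. With the median of the probe's printed block taken off, the values of the lines overlap, at 1.22 and 0.60 in HT-29 and 0.70 and 0.36 in DLD-1.

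CD55 probe 3 spread more widely. It had log2 ratios of 2.98 and 1.11 on HT-29 arrays 1 and 2, a mean of 2.05 ± 1.32 or 4.13-fold, and 1.42 and 0.23 on the DLD-1 arrays, a mean of 0.83 ± 0.84 or 1.77-fold. Array 1 gave the higher value in both lines, and the DLD-1 and HT-29 values of this probe overlap. CD55 probe 2, the one described as a hypothetical protein, had 0.61 and 0.83 in HT-29, a mean of 0.72 ± 0.16 or 1.65-fold. In DLD-1 it had 0.27 and 0.26, a mean of 0.26 ± 0.0036 or 1.20-fold. All 3 probes are of 1 gene and are not replicates of the treatment.

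**Figure D1:**
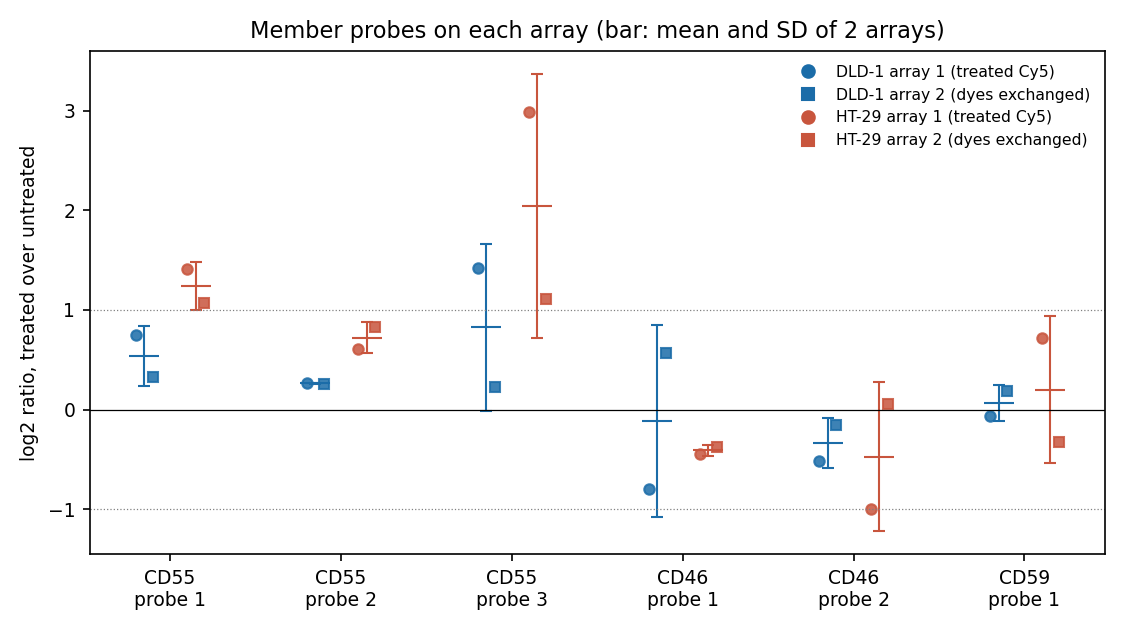
Log2 ratio of treated over untreated for the 6 probes on each array, with DLD-1 in blue and HT-29 in red, circles for array 1 and squares for the dye-exchanged array 2; bars give the mean and SD of the 2 arrays and dotted lines mark a 2-fold difference. All 12 CD55 values lie above 0, from 0.23 to 2.98, while CD46 and CD59 values lie on both sides of it; the sign of the squares rests on the reading of the channels.

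Probes 1 and 3 of CD55 were at least 2-fold higher on both HT-29 arrays, a limit that 0.115% of 22642 probes reached, and had rank 31 and 5 from the top by their HT-29 mean. This is the contrast for which the gene was picked, so nothing is read from that share. CD55 probe 2 did not reach 2-fold on either array. In DLD-1 no CD55 probe was at least 2-fold higher on both arrays, where 0.113% of 21197 probes were. All 3 CD55 probes were positive on both DLD-1 arrays, against 14.6% of probes. In the labels' channel order each of these probes had opposite signs on the 2 DLD-1 arrays. The 3 probes are of 1 gene, and the channel reading was chosen with earlier results known, so nothing is read from this share either. The CD55 probes were positive on all 4 arrays, as 4.53% of 18868 probes were, but these include the HT-29 arrays that chose CD55, so nothing is read from it. By its DLD-1 mean, CD55 probe 3 lay above 99.4% of probes, probe 1 above 97.5% and probe 2 above 89.1%. In the labels' channel order the HT-29 means of probes 1, 2 and 3 became 0.17, −0.11 and 0.94 and the DLD-1 means 0.21, 0.0025 and 0.59, since array 2 then counts with the opposite sign.

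The signals behind these ratios were more than 2 background SD above background with 1 exception. For CD55 probe 1, intensity minus background went from 2752 in untreated to 7693 in treated cells on HT-29 array 1, and from 1725 to 4748 on HT-29 array 2. In DLD-1 it went from 4855 to 9815 on array 1 and from 8498 to 7439 on array 2. On that last array the treated signal was the lower before normalisation, and the ratio was positive after the loess correction; the authors' deposited log2 value there was 0.05. CD55 probe 3 also had the lower treated signal on DLD-1 array 2, 4618 in untreated and 4471 in treated cells, with an authors' deposited log2 value of 0.20. CD55 probe 3 had untreated signal of 193 on HT-29 array 1, less than the 2 background SD that counted as measured, against 3155 in treated cells, and the authors gave this spot no ratio. Its 2.98 therefore rests on an untreated signal at background, and the probe was measured in untreated HT-29 on 1 of 2 arrays only. On HT-29 array 2 the signal of CD55 probe 3 went from 1605 to 4567, and without array 1 its HT-29 value is 1.11. The background SD of the untreated channel on array 2 was 510, so this signal too was not far above the limit. CD55 probe 2 went from 1749 to 2725 on HT-29 array 1 and from 2045 to 4682 on array 2. Of the 24 channel signals of the CD55 probes, 23 were above background, and all 16 of CD46 and all 8 of CD59 were.

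**Figure D2:**
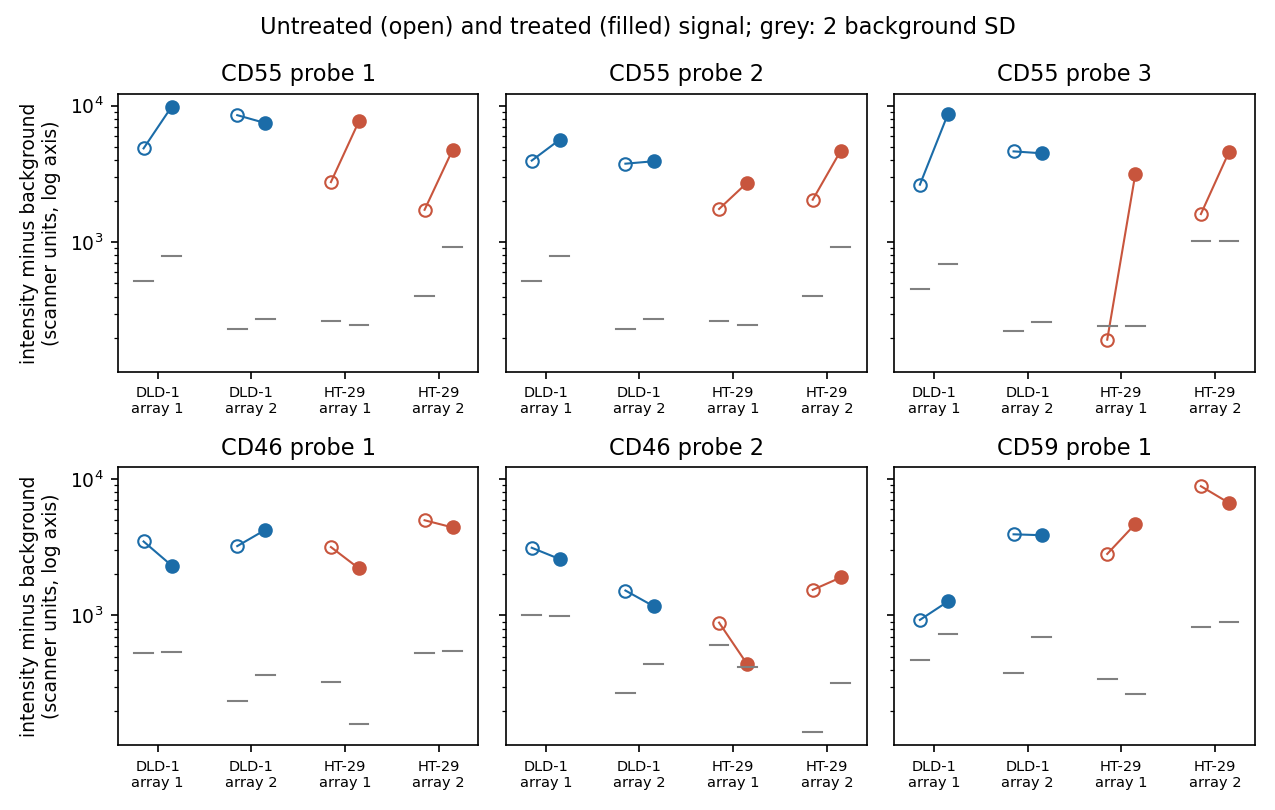
Intensity minus background in untreated (open) and treated (filled) cells for each probe and array, in scanner units on a log axis, with grey marks at 2 background SD of the channel. The signal of CD55 probe 1 goes from 2752 to 7693 on HT-29 array 1 and that of probe 3 from 2634 to 8683 on DLD-1 array 1, and only the untreated signal of CD55 probe 3 on HT-29 array 1 lies below its grey mark, at 193.

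Position on the slide moved with the CD55 result. Spots were printed in 48 blocks, which accounted for 21.6% to 50.8% of the variance of the log2 ratios of an array. CD55 probes 1 and 2 lie in 1 block and probe 3 in the block beside it, and the median log2 ratios of these 2 blocks were 0.19 and 0.25 on array 1 of HT-29 and 0.47 and 0.51 on its array 2. With each block's median taken off, all 12 CD55 values stayed positive, between 0.22 and 2.73, a count that again holds the arrays that chose CD55; 5.11% of all probes were positive on all 4. In HT-29, probe 1 then had 1.22 and 0.60, probe 2 had 0.42 and 0.36, and probe 3 had 2.73 and 0.60. No CD55 probe was then at least 2-fold higher on both HT-29 arrays, a limit that 0.0397% of probes still reached, nor on both DLD-1 arrays, where 0.109% did. In DLD-1 the same step gave 0.70 and 0.36 for probe 1, 0.22 and 0.30 for probe 2, and 1.25 and 0.52 for probe 3. The CD55 means in HT-29 with the block medians at 0 were 0.91 ± 0.44, 0.39 ± 0.04 and 1.66 ± 1.51 for probes 1, 2 and 3.

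**Figure D3:**
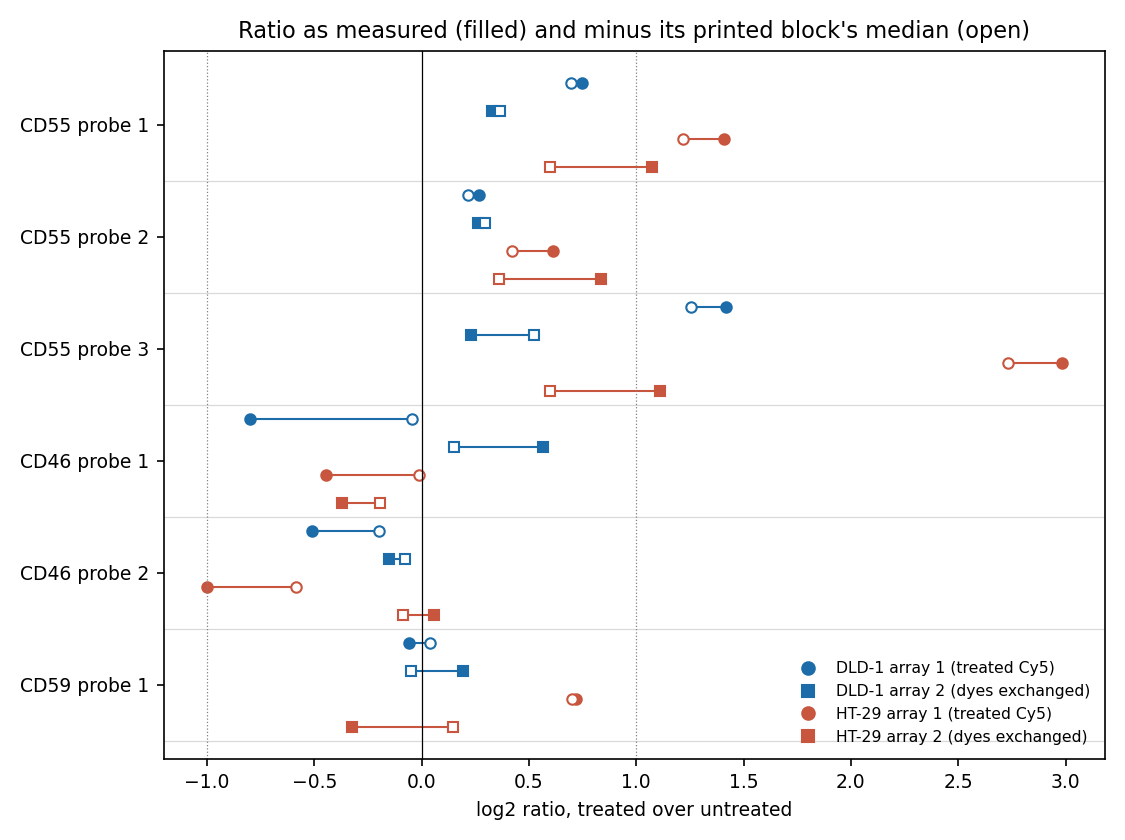
Log2 ratio of treated over untreated as measured (filled) and after the median of the probe's printed block was taken off (open), for each probe, with the 4 arrays from top to bottom and colours for the lines. CD55 values move toward 0 on HT-29 array 2, from 1.07 to 0.60 for probe 1, and stay positive, while CD46 probe 1 moves from −0.80 to −0.05 on DLD-1 array 1.

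CD46, the cofactor for factor I, had mostly negative ratios. CD46 probe 1 had log2 ratios of −0.45 and −0.37 on the HT-29 arrays, a mean of −0.41 ± 0.05 or 1.33-fold lower, and both values are negative. In DLD-1 the same probe had −0.80 and 0.57, a mean of −0.12 ± 0.96, so its sign differs between the 2 arrays. Its block held the lowest median of all blocks on DLD-1 array 1 (−0.75) and the highest on DLD-1 array 2 (0.42). With block medians taken off, CD46 probe 1 had −0.05 and 0.15 in DLD-1 and −0.01 and −0.19 in HT-29. In the labels' channel order its means were −0.68 in DLD-1 and −0.04 in HT-29. Its signal on HT-29 array 1 went from 3163 in untreated to 2204 in treated cells, and on HT-29 array 2 from 4970 to 4402.

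CD46 probe 2, described as a hypothetical protein, had −1.001 and 0.06 in HT-29, a mean of −0.47 ± 0.75. In DLD-1 it had −0.51 and −0.15, a mean of −0.33 ± 0.25. Its lowest value goes with its weakest signal, 440 in treated cells of HT-29 array 1, which is barely above 2 background SD of 210. Of the 8 CD46 log2 ratios, 2 were positive, and 1 was once the block medians were taken off. Neither CD46 probe was at least 2-fold lower on both arrays in either line, where 0.0132% of probes were in HT-29 and 0.00944% in DLD-1. Negative values on both arrays, as CD46 probe 1 had in HT-29 and probe 2 in DLD-1, were found for 28.5% and 17.3% of probes. In the labels' channel order these 2 cases had opposite signs on their arrays, −0.45 and 0.37, and −0.51 and 0.15. Probe 1 in DLD-1 (−0.80 and −0.57) and probe 2 in HT-29 (−1.001 and −0.06) were then negative on both arrays. Which line has both values negative thus rests on the channel reading.

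CD59, which blocks the pore, showed no common direction in the channel reading used here. Its probe had log2 ratios of 0.72 and −0.32 on the HT-29 arrays, a mean of 0.20 ± 0.74, and −0.06 and 0.19 on the DLD-1 arrays, a mean of 0.07 ± 0.18. The signs differ between the arrays of each line, and each mean is smaller than its SD. On HT-29 array 1 the CD59 signal went from 2817 to 4669 and on HT-29 array 2 from 8819 to 6652. With block medians taken off, the HT-29 values were 0.70 and 0.14 and the DLD-1 values 0.04 and −0.05. In the labels' channel order the CD59 probe had 0.52 ± 0.28 in HT-29, positive on both arrays, and −0.13 ± 0.09 in DLD-1, negative on both. Its direction thus rests on which channel is read as treated.

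The level of each probe was also set between the lines, HT-29 over DLD-1, within each dye orientation and separately for untreated and treated RNA. Since both HT-29 levels enter the ratio that chose CD55, its levels are a description from which nothing is read. These are differences of log2 channel values after the arrays were brought to 1 distribution of average signal. CD59 was higher in untreated HT-29 than in untreated DLD-1 by 1.53 on array 1 and 0.93 on array 2, and in treated cells by 2.31 and 0.41. A higher treated level in both orientations was found for 18.8% of 16771 probes. A higher untreated level in both orientations was found for 22.3% of 15565 probes, and CD59 did not reach 2-fold in both, as 2.19% did. CD55 probe 1 had an untreated level that differed by −0.02 on array 1 and −2.75 on array 2, and CD55 probe 2 by −0.29 and −1.52. For CD55 probe 3 the difference was −1.85 and −2.18, with the untreated HT-29 signal at background on array 1. CD55 probes 1 and 2 had a lower untreated level in HT-29 in both orientations, as 29.9% of probes did (2.89% by at least 2-fold), and probe 3 lies outside that count; the size differed between orientations by more than 1 on the log2 scale for probes 1 and 2. In treated cells CD55 probes 1 and 2 had 0.64 and 0.05 on array 1 and −2.003 and −0.95 on array 2, which differ in sign, and probe 3 had −0.28 and −1.30, lower in both as 25.9% of probes were. CD46 probe 2 was lower in HT-29 by both measures (−0.78 and −0.90 untreated, −1.27 and −0.69 treated), while CD46 probe 1 was higher in untreated HT-29 (0.43 and 0.19) and had 0.78 and −0.75 in treated cells. In the labels' channel order the treated and untreated levels of array 2 change places. CD46 probe 1 then has 0.43 and −0.75 in untreated cells, which differ in sign.

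CD55 and CD46 lie in a cluster of complement regulator genes on chromosome 1, and CD59 lies on chromosome 11. In genome order, as RefSeq gives it, the cluster holds C4BPB and C4BPA, which encode the chains of C4b-binding protein, a plasma inhibitor, then CD55, the complement receptors CR2 and CR1, CR1L, and CD46. C4BPB had log2 ratios of 2.17 and 0.90 on the HT-29 arrays and 0.27 and −0.06 on the DLD-1 arrays. C4BPA, the gene next to CD55, had 0.76 and 0.79 in HT-29 and 0.13 and −0.13 in DLD-1. Both genes were positive on both HT-29 arrays, as 27.9% of probes were, and their DLD-1 values lie on both sides of 0. In the labels' channel order the array 2 values take the opposite sign, and neither gene is then positive on both HT-29 arrays. With block medians taken off, C4BPB had 1.97 and 0.50 and C4BPA 0.64 and 0.60 in HT-29. CR2, on the other side of CD55, had 0.17 and 0.52 in HT-29, which became −0.02 and 0.12 with the block medians off, and 0.01 and −0.18 in DLD-1. CR1 was left out because neither of its channels was above background on DLD-1 array 2. The upstream windows of C4BPB and C4BPA hold 1 and 4 CpGs, against 12 for CD55, 17 for CR2 and 19 for CD46. Neighbours of CD59 had values on both sides of 0. CSTF3 was positive on every array, with 0.51 and 0.27 in HT-29 and 0.04 and 0.03 in DLD-1. CAPRIN1 had 0.26 and −0.65 in HT-29 and 0.64 and 0.23 in DLD-1. These neighbours were looked up after the member values were known.

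**Figure D4:**
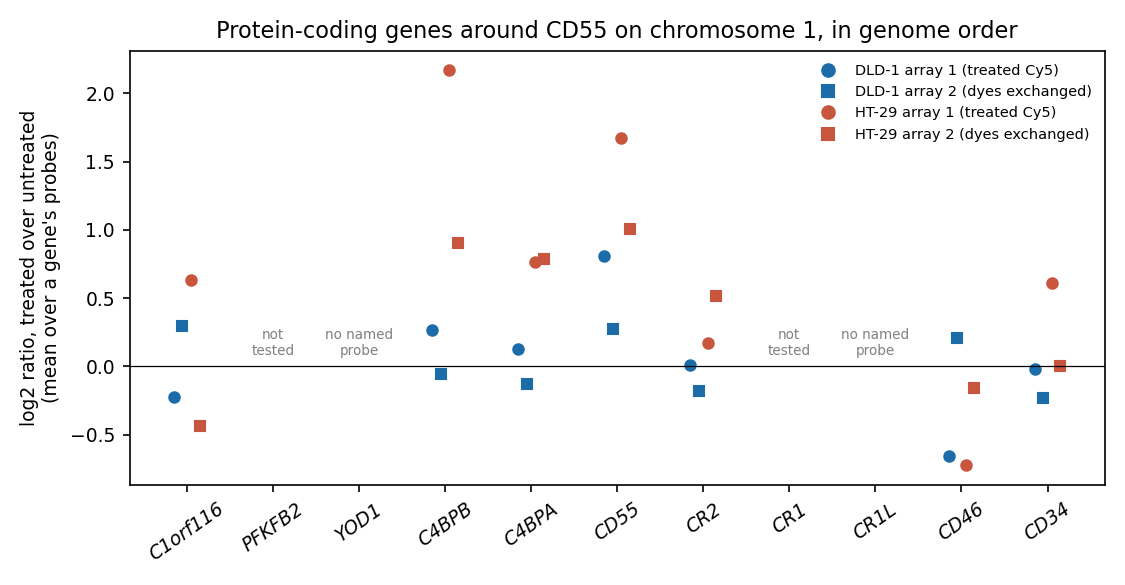
Log2 ratio of treated over untreated on each array for the 5 protein-coding genes on either side of CD55, in genome order, as means over a gene's probes. C4BPB, C4BPA and CD55 are positive on both HT-29 arrays, at 0.76 or more,, CD46 lies below 0 there at −0.72 and −0.16, and the CD55 values in DLD-1 are 0.81 and 0.27.

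Other genes of the pathway were taken from lists, and limma tested the mean of the 2 lines over 9092 genes, of which 17 (0.187%) were called higher and 4 (0.0440%) lower at an adjusted p under 0.05 and 456 had an unadjusted p under 0.05. Every gene had the same standard error, 0.216, so p followed the size of the mean and not how far the 2 lines agreed. Of 14 other complement regulators tested, none was called in limma and 1 had an unadjusted p under 0.05. It was C4BPB, with a mean log2 ratio of 0.82 (limma adjusted p = 0.0518), positive on 3 of 4 arrays. This mean joins 0.10 in DLD-1 and 1.53 in HT-29. C4BPA followed with a mean of 0.39, and the lowest value was that of CSMD1, at −0.32. The list's median was 0.09, with 0.13 in HT-29 and −0.01 in DLD-1, where all genes had medians of 0.01 over both lines, 0.04 in HT-29 and −0.04 in DLD-1.

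None of 16 complement components was called by limma, and 0 had an unadjusted p under 0.05. Their median mean was −0.07, with −0.05 in HT-29 and −0.07 in DLD-1. CFB, a protease of the alternative pathway, had 0.36 and C2, its counterpart in the classical pathway, 0.25, while properdin (CFP), which stabilises the alternative convertase, had −0.33 and COLEC11 −0.25. CFB had −0.23 and 0.33 on the DLD-1 arrays and 0.55 and 0.78 on the HT-29 arrays. Among 9 receptors and ligands, none was called by limma and 0 had an unadjusted p under 0.05. CD93 had 0.24, ITGAM 0.17, C5AR1, the receptor for C5a, −0.14 and ITGB2 −0.21, and the median was 0.13, with 0.17 in HT-29 and 0.01 in DLD-1.

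CD55 and CD59 need the GPI anchor, so the genes that build and attach it were listed as well. Of 21 tested, none was called in limma and 1 had an unadjusted p under 0.05. That gene was PIGT, a subunit of the transamidase that attaches the anchor, with a mean of 0.52 (limma adjusted p = 0.684) and log2 ratios of 2.00 and −0.18 on the HT-29 arrays. PIGX had 0.42, PGAP6 −0.31 and PIGC −0.31, and the list's median was 0.07, with 0.21 in HT-29 and −0.04 in DLD-1. Of 33 other GPI-anchored surface proteins, none was called in limma and 2 had an unadjusted p under 0.05. They were NT5E, the ecto-nucleotidase CD73, at 0.60 (limma adjusted p = 0.453), and the glypican GPC6 at 0.50 (limma adjusted p = 0.732). NT5E was high on array 1 only, with 1.41 and −0.16 in DLD-1 and 1.15 and 0.0018 in HT-29. GPC6 had 0.28 and 0.69 in DLD-1 and 0.69 and 0.34 in HT-29. ALPL had −0.32 and TFPI, an inhibitor of coagulation, −0.38. The median was −0.0028, with 0.20 in HT-29 and −0.06 in DLD-1. The 0.72 of CD55 probe 2, the lowest CD55 mean in HT-29, stands beside a highest value of 0.74 in this list, that of CEACAM6.

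**Figure D5:**
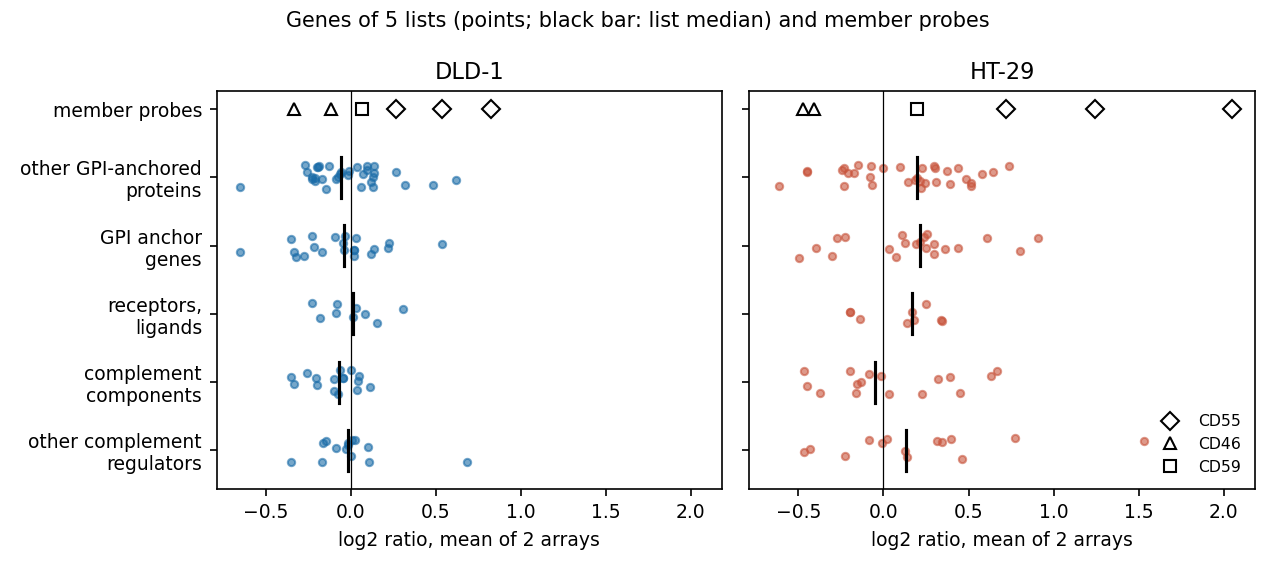
Mean log2 ratio of treated over untreated per gene in DLD-1 (left) and HT-29 (right) for 5 lists, with black bars at the list medians, and the member probes in the top row. In HT-29 the CD55 probes lie at 0.72, 1.24 and 2.05, C4BPB is the point at 1.53 among other complement regulators, and list medians lie between −0.05 and 0.21.

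Among 9089 named genes measured on all arrays, the 5 whose 4 log2 ratios lay nearest to the mean of the CD55 probes (0.81, 0.27, 1.67 and 1.01 on DLD-1 arrays 1 and 2 and HT-29 arrays 1 and 2) were found by Euclidean distance. The nearest was HSPA5, a chaperone of the endoplasmic reticulum, at a distance of 0.23, with 0.91, 0.40, 1.53 and 1.10. KRT23, an epithelial keratin, followed at 0.41 with 0.58, 0.33, 2.00 and 0.94. GLDC of the glycine cleavage system lay at 0.57, the leptin receptor LEPR at 0.62 and IFI27L2 at 0.65. The GLDC probe was not above background in untreated cells of HT-29 array 1, and LEPR is given by 1 of its 2 probes, the other being too dim. The CD55 mean of 1.67 on that array includes the 2.98 of CD55 probe 3, whose untreated signal there was at background. The choice of nearest genes thus rests in part on that value. With 4 arrays this likeness is a description and carries no test.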

How the data were processed

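Total RNA of DLD-1 and HT-29 was made into amino allyl aRNA and coupled to Cy3 or Cy5, per the labels' protocols. The deposited scanner files hold intensity, background and background SD for 30336 spots in both channels, on a linear scale, with 1 background value per printed block. The authors' own log2 value sets channel 1 against channel 2 and differs from the raw ratio by a fixed shift on each array; the deposited series table repeats it with the sign turned. The scanner and its software were left unnamed in the sources used here.

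Ratios were recomputed in R 4.3.3 with limma 3.58.1, using normexp (offset 50) and loess, with controls and bad spots given weight 0; 49 probes marked bad were left out. A channel counted as above background beyond 2 background SD, and a probe needed 1 such channel on every array used. Of 29640 probes, 15593 were named, 1393 of these probes from the descriptions, for 12996 genes. Symbols were brought to current names with RefSeq of GRCh38.p14. A gene's probes were averaged for limma (lmFit and eBayes on the 2 line means against 0, two-sided, Benjamini-Hochberg over all genes). Lines were compared on channel values after Aquantile scaling. The fold rule and limma were tested on simulated arrays with independent noise and the same shift on every array. The simulation held no block effects and no doubt over channels, so it says nothing of those limits. In each list the genes named are those past the threshold, otherwise the 2 highest and the 2 lowest means; further genes were named after their values were seen. The value of 1 gene that this rule names is not reported here. Members, lists and the reading of the channels were chosen with earlier results of these data known. The number of arrays limits the precision. Alternatives were channel order, background correction, normalisation, the deposited ratios, the filter and leaving out each array.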

Additional observations from a re-analysis of the deposited data

How the results depend on the processing

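Each array already pairs treated with untreated RNA, so every ratio is a paired value. No further pairing was made between the 2 lines, whose arrays share only an orientation of the dyes. In the labels' channel order CD55 probes 1 and 2 had HT-29 means of 0.17 and −0.11, and with block medians set to 0 they had 0.91 and 0.39. Under the other settings that keep the channel reading, single arrays included, CD55 probe 1 in HT-29 ran up to 1.41, probe 2 up to 0.83 and probe 3 from 1.11 to 2.98; probe 3 has no HT-29 value from the deposited ratios or with both channels required above background. CD46 probe 2 in HT-29 reached 0.06 on array 2 alone, and CD59 in HT-29 ran from −0.32 to 0.72.

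Over all probes, 26 in DLD-1 were at least 2-fold changed on both arrays, HT-29 had 29, and limma called 21 genes. In the labels' order these counts were 81, 70 and 59. They were 69, 87 and 2 from the authors' background-subtracted intensities, 9, 17 and 11 with both channels above background, and 71, 56 and 40 with no filter. With block medians set to 0, 15 probes in HT-29 and 4 genes in limma were found, and the deposited ratios gave 12 genes. On 1 array alone 978 to 1628 probes of DLD-1 and 1018 to 1367 of HT-29 passed, and limma called 5 to 357 genes with an array left out. The median of receptors and ligands was −0.15 in the labels' order. Dim signal limits CD55 probe 3 in untreated HT-29 and CD46 probe 2 in treated HT-29.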
